A study of Homo sapiens with 8 samples.

Results

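The methionine tRNAs were taken as every tRNA reference with the anticodon CAT that the files name tRNA-Met (elongator) or tRNA-iMet (initiator). They comprised 9 of the 252 tRNA references, of which 7 were elongator and 2 initiator references. Together they name 20 genes and held 252 of the 16258 sense-strand crosslink sites, 228 on the elongator and 24 on the initiator. The elongator family (tRNA-Met-CAT) and the initiator family (tRNA-iMet-CAT) are 2 of the 50 tRNA families in the files, which also hold 5 rRNA families.

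Methionine has a single codon, AUG, which is read by a pair of tRNAs. The initiator tRNA is bound by initiation factor eIF2 and decodes the start codon in the ribosomal P site, whereas the elongator tRNA is delivered by eEF1A and decodes internal AUG codons. Both carry the same anticodon but differ in the stems and loops around it. Dihydrouridine synthases reduce uridine to dihydrouridine, mainly in the D loop near the 5′ side of the tRNA, and the Dus1 and Dus2 enzymes of yeast act on different uridines of that loop.

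Crosslink sites were mapped by iCLIP, in which RNA bound covalently to a protein is recovered with it and the position of the bond is read from where reverse transcription stopped. All 8 libraries came from Flp-In T-REx 293 cells, a human embryonic kidney line with 1 integrated transgene, which expressed 3xFLAG-DUS1L or 3xFLAG-DUS2L from a tetracycline-inducible construct. All cells received tetracycline (1 µg/mL) for 12 h and then fresh tetracycline medium for another 12 h, without 5-chlorouridine (5-ClUrd, the untreated groups) or with it at 100 µM. 5-ClUrd is a halogenated uridine; once in RNA, it can hold a dihydrouridine synthase covalently at the base the enzyme would reduce. Each of the 4 groups, untreated and 5-ClUrd for each enzyme, had 2 libraries, described in the series as biological replicates. The tagged enzyme is expressed in addition to the cells' own, no library without a tagged enzyme was analysed here, and the abundance of the tRNAs was not measured, so a lower count cannot be told apart from less tRNA.

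Sense counts per library were 144322 and 7369 for untreated DUS1L, 824657 and 542521 for DUS1L with 5-ClUrd, 130011 and 172078 for untreated DUS2L, and 370878 and 363024 for DUS2L with 5-ClUrd. The second untreated DUS1L library was therefore by far the shallowest: 3 counts in it correspond to 0.0407% of its sense counts. tRNA took between 80.6% and 86.4% of sense counts in untreated DUS2L and between 95.6% and 99.5% in the other 3 groups. The names of the deposited DUS2L files refer to a first mapping to non-coding RNA and those of DUS1L do not. Differences in file making and differences between the enzymes cannot be told apart in comparisons between enzymes.

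Nearly all methionine tRNA counts lay on the elongator. The elongator family held 4853 and 268 counts in untreated DUS1L, 26819 and 15171 in DUS1L with 5-ClUrd, 599 and 1037 in untreated DUS2L, and 5202 and 7949 in DUS2L with 5-ClUrd. The initiator family held 2 and 0, 7 and 15, 19 and 19, and 25 and 7 counts in the same order. The initiator thus never exceeded 25 counts, and its level in any library carries a wide counting error.

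As a share of sense counts, the elongator stood at 3.5% ± 0.194 in untreated DUS1L, 3.02% ± 0.322 in DUS1L with 5-ClUrd, 0.532% ± 0.100 in untreated DUS2L and 1.80% ± 0.557 in DUS2L with 5-ClUrd (SD, n = 2 each). Every DUS1L library lay above every DUS2L library, and the treated DUS2L libraries lay above the untreated ones. The treated DUS1L libraries lay narrowly below the untreated ones. There the 95% counting interval of the first treated library (3.21% to 3.29%) overlapped those of both untreated libraries (3.27% to 3.46% and 3.22% to 4.09%). How many other families separated in these ways is not given here, so the separation is not read as particular to the elongator. Among the 50 tRNA families the elongator ranked 9 in both untreated DUS1L libraries, 12 and 16 in the treated ones, 33 and 29 in untreated DUS2L and 26 and 16 in treated DUS2L. The initiator stood at 0.00139% and 0% in untreated DUS1L, 0.000849% and 0.00276% in treated DUS1L, 0.0146% and 0.0110% in untreated DUS2L, and 0.00674% and 0.00193% in treated DUS2L. Its rank lay between 44 and 50 in every library where it had a count. In the second untreated DUS1L library, with 0 counts, it shared rank 38 with the other families without counts.

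Of all methionine tRNA counts, the initiator took 3.07% (95% exact binomial interval 1.86% to 4.76%) and 1.80% (1.09% to 2.80%) in untreated DUS2L. With 5-ClUrd this share was 0.478% (0.310% to 0.705%) and 0.0880% (0.0354% to 0.181%). In DUS1L it was 0.0412% and 0% untreated, where 3 of the 268 counts would be 1.12% and the exact interval for 0 counts reaches 1.37%, and 0.0261% and 0.0988% with 5-ClUrd. The initiator's part of the pair was therefore above 1% only in the untreated DUS2L libraries, with the shallow DUS1L library giving no useful limit. These intervals cover counting error only, since crosslink counts need not be independent molecules. On the log2 scale, the ratio of elongator to initiator counts (0.5 added to each) was 5.34 ± 0.56 in untreated and 8.86 ± 1.68 in treated DUS2L (SD, n = 2 each; difference 3.52; exact two-sided permutation test, p = 0.333, the smallest that 2 against 2 libraries allow). In DUS1L it was 10.0 ± 1.31 untreated and 10.9 ± 1.32 with 5-ClUrd (exact two-sided permutation test, p = 0.667).

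**Figure D1:**
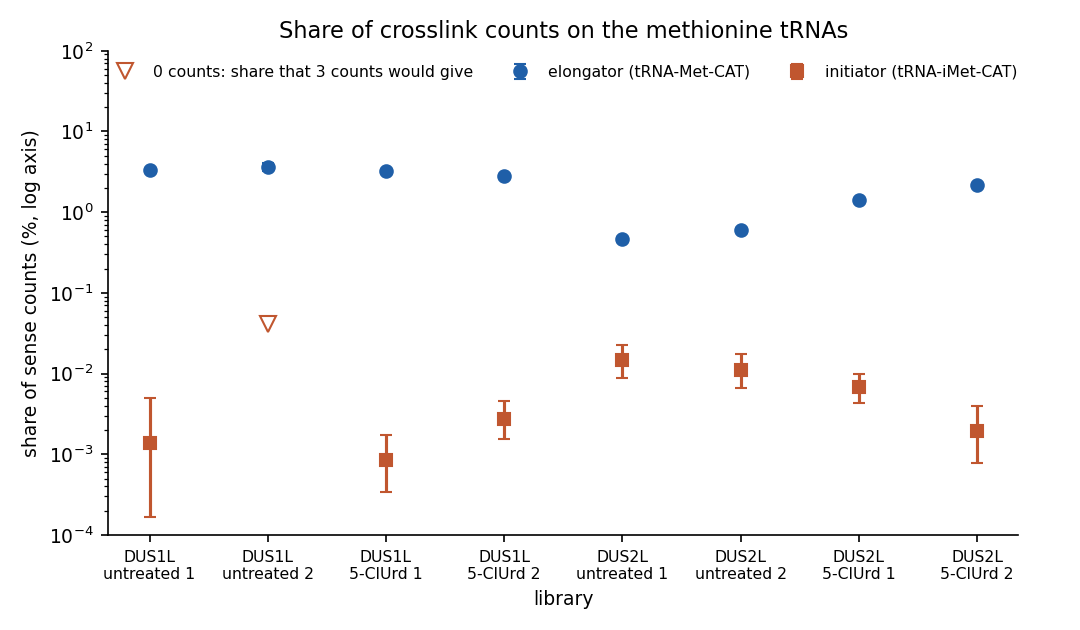
Share of each library's sense counts (y axis, percent, log scale) on the elongator and initiator methionine tRNAs in the 8 libraries (x axis), with 95% exact binomial intervals that cover counting error only. The elongator stands between 0.461% and 3.64% in every library and the initiator never above 0.0146%; the open triangle marks the library with 0 initiator counts, at the share that 3 counts would give.

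The first question was whether 5-ClUrd changed how much of each enzyme's signal lay on the methionine tRNAs. In DUS2L cells the elongator rose with 5-ClUrd, by 1.76 ± 0.29 on the log2 scale (SE; edgeR quasi-likelihood test, adjusted p = 0.00145), a fold of 3.38. In that comparison 76.4% of the 55 families were called, 52.7% higher and 23.6% lower, and the median family moved by 0.86 on the log2 scale. With TMM factors 19 families were higher and 21 lower, against 29 and 13 with total-count scaling, and the elongator stayed among the higher ones (1.11). The elongator was also higher under each alternative processing that was tried, with log2 changes between 1.01 and 2.94. Initiator counts in DUS2L were 38 untreated and 32 with 5-ClUrd, which as shares gives a ratio of 0.347 (95% counting interval 0.210 to 0.570). That interval lay below 1, but the spread between libraries was larger: the fitted log2 change was -1.54 ± 1.78 (adjusted p = 0.447), and it passed the threshold only without the first treated library (-2.68, adjusted p = 0.00103).

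In DUS1L cells neither methionine tRNA was called. The elongator had a log2 change of -0.21 ± 0.36 (edgeR, adjusted p = 0.667), and its treated shares (3.25% and 2.80%) lay below its untreated ones (3.36% and 3.64%). In this comparison 24.5% of families were called, 22.6% higher and 1.89% lower, and the median family moved by 1.35. DESeq2's Wald test, whose scaling lowers all families (median 0.24), called the elongator lower (-1.46, adjusted p = 0.0432), as 1 of 10 lower families against 1 higher. Without sites above 500 counts the sign turned (0.59, adjusted p = 0.471). For the initiator, 22 treated counts stood against 2 untreated ones, and the ratio of shares was 1.22 (counting interval 0.300 to 10.7).

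The response of the elongator differed between the enzymes. Its log2 change with 5-ClUrd was greater in DUS2L than in DUS1L by 1.97 ± 0.51 (edgeR over all 8 libraries, adjusted p = 0.0260), in a comparison in which 29.1% of families were called, 10.9% in this direction and 18.2% in the other. The initiator's difference was -1.97 ± 1.97 (adjusted p = 0.410). The call for the elongator was lost with trimmed-mean (TMM) scaling (0.87, adjusted p = 0.423), without sites above 500 counts (2.34, adjusted p = 0.0560), and without the first (2.08, adjusted p = 0.0853) or second (1.86, 0.106) treated DUS1L library. It was lost as well without the first (1.79, 0.115) or second (2.17, 0.0903) untreated DUS2L library and without the second treated one (1.61, 0.108).

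Between enzymes, the elongator took a smaller share in untreated DUS2L than in untreated DUS1L, by -2.72 ± 0.38 on the log2 scale (edgeR, adjusted p = 0.000318), where 89.1% of families were called, 47.3% higher and 41.8% lower. Among treated libraries the difference was -0.75 ± 0.36 (adjusted p = 0.0966), where 65.5% of families were called, 38.2% higher and 27.3% lower. It passed the threshold without the first (adjusted p = 0.0309) or the second (0.0318) untreated DUS1L library. The initiator had 38 counts in untreated DUS2L and 2 in untreated DUS1L, a ratio of shares of 9.54 (counting interval 2.47 to 81.6), and the fitted difference of 3.26 ± 1.61 missed the threshold (adjusted p = 0.0852). It passed with TMM factors (3.52, adjusted p = 0.0402), DESeq2's Wald test (3.46, 0.021) or size factors (3.75, 0.0437), and without the first (3.25, 0.0415) or second (3.25, 0.0348) treated DUS2L library. In the fit with 1 feature per reference, tRNA-iMet-CAT-1-8, which held nearly all of these counts, was called higher (3.24 ± 1.37, adjusted p = 0.0435). Treated DUS2L and DUS1L held 32 and 22 initiator counts, a ratio of 2.71 (counting interval 1.53 to 4.89; fitted 1.29 ± 1.04, adjusted p = 0.289).

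For context, the isoleucine families AAT, GAT and TAT read codons that share their first pair of letters with AUG. With 5-ClUrd 3 of 3 were higher in DUS2L (median log2 change 1.36, against 0.86 over all families, of which 52.7% were higher) and 0 of 3 were called in DUS1L (median 1.00, against 1.35, with 24.5% called). For the difference between the effects 0 of 3 were called, against 29.1% of families. In DUS2L against DUS1L 2 of 3 were lower among treated libraries, against 27.3% of families, and 2 of 3 among untreated ones, against 41.8%. Across the 8 libraries the families whose shares tracked the elongator most closely were tRNA-Ala-TGC (Pearson r = 0.928), tRNA-Arg-CCT (0.913) and tRNA-Tyr-GTA (0.912), computed on log2 of the percent share plus 0.001. For the initiator they were tRNA-Glu-CTC (0.851), tRNA-Leu-CAA (0.843) and tRNA-Asp-GTC (0.838). These correlations describe 8 libraries that fall into 2 enzymes, and shares of 1 library are not independent of each other.

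The elongator signal did not come from the same references in the 2 enzymes' cells. The files group the 11 elongator genes into 7 references and each gene spans 73 nt in the RefSeq annotation of GRCh38.p14. tRNA-Met-CAT-1-1 is the gene TRM-CAT1-1 on chromosome 8 (123157230 to 123157302). tRNA-Met-CAT-2-1 is TRM-CAT2-1 on chromosome 16 (71426493 to 71426565), and tRNA-Met-CAT-6-1 is TRM-CAT6-1 on the same chromosome (87384022 to 87384094). tRNA-Met-CAT-3-1 stands for TRM-CAT3-1 and TRM-CAT3-2 on chromosome 6 (28944575 to 28944647 and 28953265 to 28953337). References 4-2, 5-2 and 7-1 stand for the other 6 genes, all on chromosome 6. The 9 initiator genes fall into 2 references. tRNA-iMet-CAT-1-8 covers 8 genes of 72 nt, 6 of them on chromosome 6 and 1 each on chromosomes 1 and 17, and tRNA-iMet-CAT-2-1 was not matched to a RefSeq gene. Near-identical copies can share reads, so that the division between references depends on how such reads were assigned, which is not given in the sources used here.

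tRNA-Met-CAT-1-1 held 1647 and 62 counts in untreated DUS1L and 6075 and 3489 in treated DUS1L, or 28.5% ± 7.64 and 22.8% ± 0.245 of elongator counts (SD, n = 2 each). In DUS2L it held 460 and 771 counts untreated and 5021 and 7593 treated, or 75.6% ± 1.73 and 96.0% ± 0.706. It was the leading elongator reference in every DUS2L library and in none of the DUS1L libraries, and the 2 enzymes' libraries did not overlap in this share.

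tRNA-Met-CAT-3-1 led in DUS1L, with 1964 and 145 counts untreated and 11122 and 5805 treated, against 67, 168, 125 and 234 in the DUS2L libraries. tRNA-Met-CAT-6-1 held 924, 58, 6892 and 4309 counts in DUS1L and 58, 81, 37 and 86 in DUS2L. tRNA-Met-CAT-2-1 held 253, 2, 2500 and 1490 counts in DUS1L and 5, 4, 5 and 25 in DUS2L. These 3 references together with 1-1 took nearly the whole family, since 4-2, 5-2 and 7-1 never held more than 9, 163 and 58 counts. Of the initiator counts, 1 untreated and 2 treated DUS2L counts lay on tRNA-iMet-CAT-2-1 and the rest on tRNA-iMet-CAT-1-8.

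**Figure D2:**
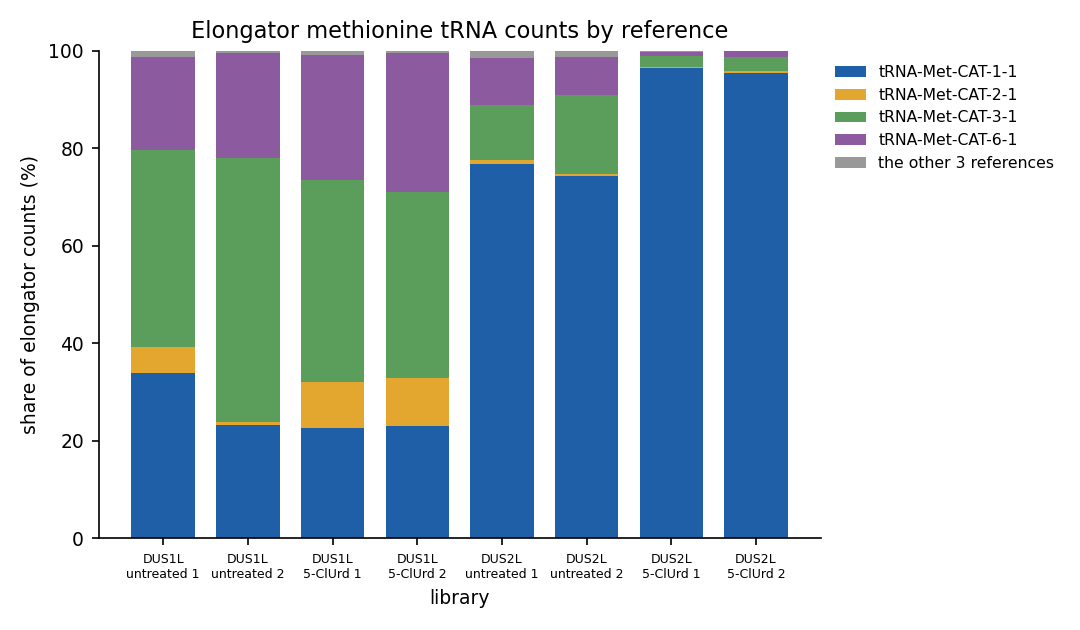
Division of the elongator counts (y axis, percent of the family's sense counts) among its references in each of the 8 libraries (x axis). tRNA-Met-CAT-1-1 takes between 22.7% and 33.9% in the DUS1L libraries and between 74.3% and 96.5% in the DUS2L libraries.

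With 1 feature per reference, a fit chosen after the data were seen, only tRNA-Met-CAT-1-1 of the elongator references rose with 5-ClUrd in DUS2L (log2 2.10 ± 0.31, edgeR adjusted p = 5.37e-10, a fold of 4.29). Over all references 60.9% were called in that comparison, 48.7% higher and 12.2% lower. tRNA-Met-CAT-3-1 had a log2 change of -0.61 ± 0.58 (adjusted p = 0.357) and tRNA-Met-CAT-6-1 of -1.44 ± 0.73 (0.0732). Both were called lower with TMM factors (-1.62 and -2.45) and with DESeq2 size factors (-1.71 and -2.55), which move the median of all references from 1.39 to 0.41 and 0.31, and without the second treated DUS2L library (-1.16 and -2.20). tRNA-Met-CAT-6-1 was also called without the first treated library (-0.95), in 1 fit of all 8 libraries (-1.44) and with tRNA families alone (-1.65). Without sites above 500 counts its sign turned (1.21, adjusted p = 0.253).

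In DUS1L 0 of 7 elongator references were called with 5-ClUrd in edgeR, and 0 had an unadjusted p under 0.05, against 37.7% of all references; 4.82% were lower. Their log2 changes were -0.53 ± 0.67 for 1-1, 1.35 ± 0.92 for 2-1, -0.46 ± 0.59 for 3-1 and 0.20 ± 0.69 for 6-1, with adjusted p between 0.219 and 0.843 in edgeR. Reference 2-1 was called higher without either untreated library (3.41 without the first and 0.72 without the second), 3-1 lower without the first (-0.70) and 1-1 lower without the second (-0.73). Signs turned without sites above 500 counts for 1-1 (0.53) and 3-1 (0.33), and for 6-1 with TMM factors (-0.70) and DESeq2's Wald test or size factors (-0.97 in each). The 5-ClUrd effect on 1-1 was more positive in DUS2L than in DUS1L by 2.64 ± 0.63 (adjusted p = 0.00582), where 17.6% of references were called, 6.56% in this direction. That call was lost with TMM factors (1.44, adjusted p = 0.265) and without the first untreated DUS2L library (2.47, 0.0555).

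Between enzymes the references split by sign. Among treated libraries 1-1 was higher in DUS2L by 1.32 ± 0.44 (edgeR adjusted p = 0.0142), whereas 2-1, 3-1 and 6-1 were lower by -6.12 ± 0.92 (1.21e-05), -4.62 ± 0.57 (1.18e-06) and -5.59 ± 0.63 (4.92e-07). In this comparison 64.3% of references were called, 29.9% higher and 34.4% lower. Reference 1-1 missed the threshold with TMM factors (adjusted p = 0.0512), without either treated DUS1L library (0.0578 and 0.0951) and without the second treated DUS2L library (0.97, 0.129). The same 3 references were lower in untreated DUS2L too, by -5.26, -4.47 and -3.95 (adjusted p of 8.27e-05, 1.54e-06 and 1.08e-05), where 66.8% of references were called, 30.3% higher and 36.5% lower. With the first untreated DUS1L library left out, which leaves 2 DUS1L counts, reference 2-1 was not called (-3.15, adjusted p = 0.104). In untreated cells 1-1 was lower in DUS2L with total-count scaling (-1.32, adjusted p = 0.0147) but stood at -0.03 with TMM factors and 0.16 with DESeq2 size factors, and it missed the threshold without the first (0.15) or second (0.0676) untreated DUS2L library and without sites above 500 counts (0.180).

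Along the molecule, with position 1 as the first base of the reference, 2 positions led in every group: 26 and 58. Together they held 71.7% ± 4.30 of elongator counts in untreated DUS1L, 66.5% ± 6.90 in untreated DUS2L, 32.1% ± 11.2 in treated DUS1L and 32.5% ± 7.94 in treated DUS2L (SD, n = 2 each). Summed over the other tRNA families, these positions held between 9.22% and 19% by group. Position 26 lies at the junction between the D arm and the anticodon arm and position 58 in the T arm in the standard numbering of tRNA, to which the references were not aligned here. Whether reverse transcription stopped at these positions at a bond with the enzyme or for another reason was not tested. No elongator site on the sense strand lay beyond position 58 of 73, and on tRNA-Met-CAT-2-1 none lay beyond 15.

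In untreated DUS1L the leading positions were 58 (46.0% ± 6.0), 26 (25.7% ± 1.70) and 15 (9.01% ± 3.09), followed by 20 (3.51% ± 4.0) and 25 (2.90% ± 2.23). With 5-ClUrd they were 58 (16.2% ± 5.83), 26 (15.9% ± 5.32), 15 (9.47% ± 0.714), 13 (7.37% ± 0.551) and 25 (6.99% ± 2.36). In untreated DUS2L position 26 came first (36.1% ± 0.114), before 58 (30.3% ± 7.01), 2 (6.40% ± 1.82), 25 (3.39% ± 1.11) and 17 (2.41% ± 0.815). With 5-ClUrd the order was 58 (17.2% ± 2.85), 26 (15.2% ± 5.10), 2 (10.4% ± 2.73), 17 (5.39% ± 0.473) and 5 (5.32% ± 1.85). Beyond the common pair, position 15 was thus among the 5 leading positions in both DUS1L groups, and positions 2 and 17 in both DUS2L groups. Positions 13 (DUS1L) and 5 (DUS2L) were so only with 5-ClUrd, and position 25 in every group but treated DUS2L. In the other tRNA families, summed, position 2 held the most counts in treated DUS2L (35693 and 35459). Position 15 held 35921 and 25210 of their counts in treated DUS1L, so neither position was particular to the elongator.

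**Figure D3:**
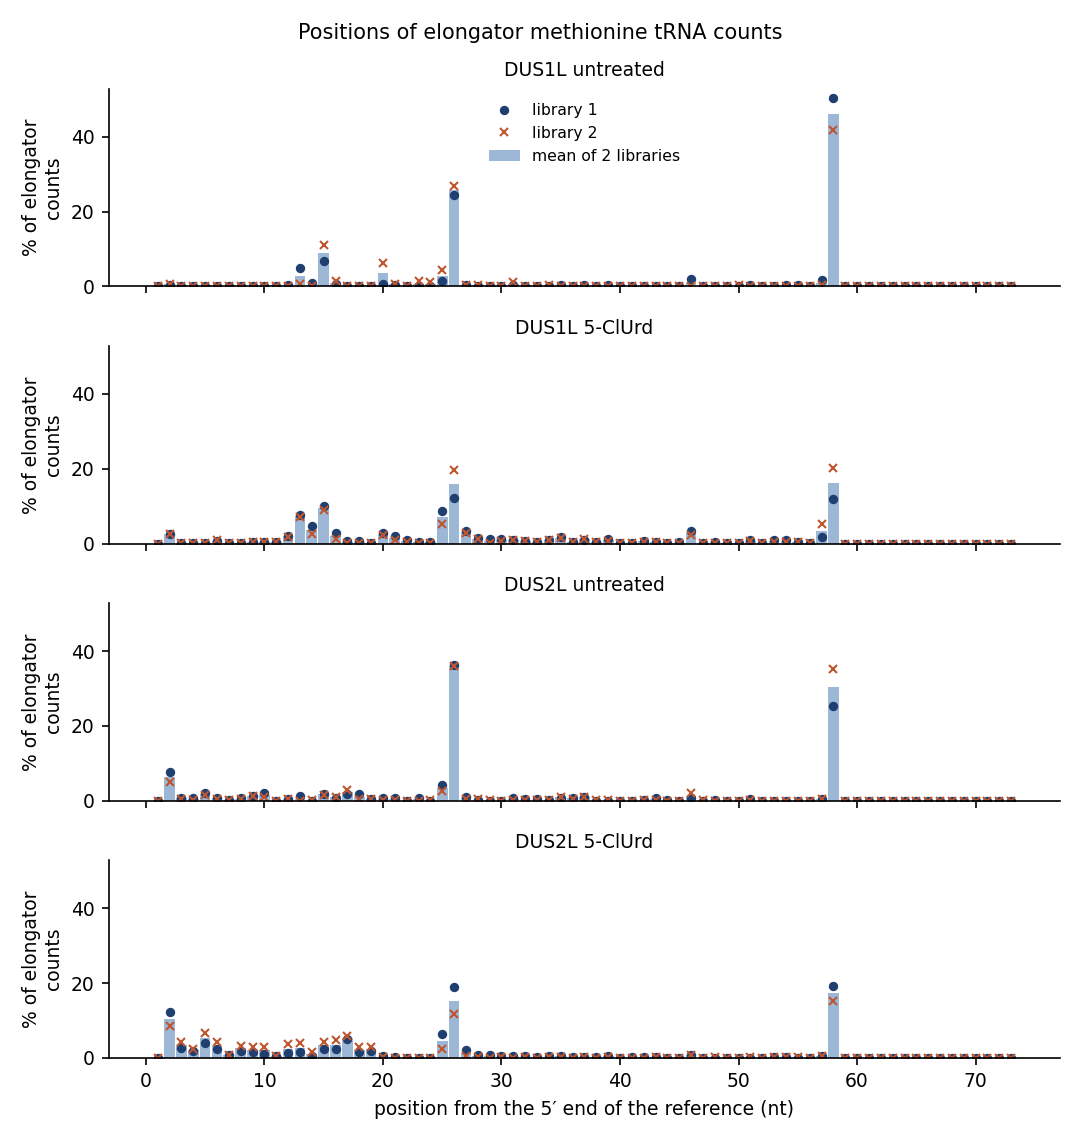
Share of elongator counts (y axis, percent of the family's counts in a library) at each position (x axis, nt from the 5′ end of the reference) in the 4 groups; bars are means of 2 libraries and points the single libraries. Positions 26 and 58 stand highest in all 4 panels, and their bars are lower with 5-ClUrd in both enzymes.

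The counts at this pair of positions were nearly level in the deepest libraries. In the first treated DUS1L library the 6 counts at positions 26 and 58 of references 1-1, 3-1 and 6-1 lay between 1046 and 1119, while the totals of these references ranged from 6075 to 11122. In the second treated DUS1L library they lay between 944 and 1033, with totals from 3489 to 5805. In the first untreated DUS1L library the same 6 counts spread from 270 to 1000, a ratio of 3.70, with totals from 924 to 1964. In treated DUS2L the 4 counts on 3-1 and 6-1 were between 7 and 51 in the first library and between 20 and 159 in the second, whereas those on 1-1 were 930 and 944 in the first and 870 and 1026 in the second. Counts near 1000 at these positions therefore occurred on every reference with a total of 3489 or more. No site of any RNA exceeded 1436 counts in a library. Sites above 500 counts held 51.5% and 44.1% of elongator counts in treated DUS1L and 48.2% and 38.8% in treated DUS2L, against 50.3% and 0% in untreated DUS1L and 0% in both untreated DUS2L libraries. The part of this levelling in the lower share at positions 26 and 58 with 5-ClUrd was not tested.

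**Figure D4:**
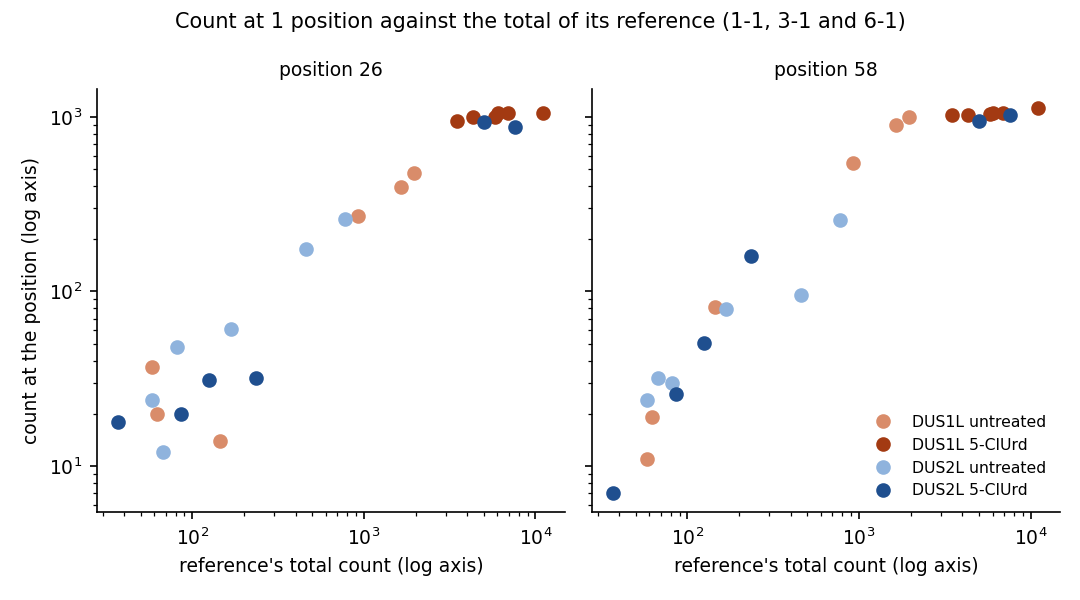
Count at position 26 (left) and position 58 (right) against the total count of the reference it lies on (both axes logarithmic), for references 1-1, 3-1 and 6-1 in the 8 libraries. Counts climb with the total up to about 1000 and lie between 870 and 1119 on every reference with 3489 counts or more.

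Summed over its references, the elongator held more of its counts in the 5′ part of the molecule in treated libraries. In DUS2L, positions 1 to 9, which precede the D arm in the standard numbering, took 14% and 9.74% untreated and 26.8% and 32.7% with 5-ClUrd, a difference of 17.9 percentage points. Positions 10 to 25, the D arm in that numbering, took 16.4% and 10.9% untreated and 25.4% and 35.7% with 5-ClUrd, a difference of 16.9 points. Positions 26 to 43 took 42.4% and 41.2% against 26.7% and 14%, and positions 49 to 65 took 26% and 36.1% against 20.1% and 16.5%. The treated and untreated libraries did not overlap in any of these 4 ranges, nor at positions 44 to 48 (1.17% and 2.12% against 0.942% and 1.16%). In each p was 0.333 (exact two-sided permutation test), the smallest value possible and the one that any full separation of 2 against 2 libraries gives. Shares of 1 family are not independent of each other. The other tRNA families, summed, also separated in each of these ranges except 49 to 65, where they overlapped. The summed DUS2L values are mostly those of tRNA-Met-CAT-1-1 and did not hold for each reference. On 3-1 positions 1 to 9 held 0 counts in every DUS2L library. Positions 26 and 58 of 3-1 together held 74.5% ± 12.5 untreated and 73.6% ± 11.3 with 5-ClUrd. On 6-1, with few counts, positions 1 to 9 held 3.45% and 0% untreated and 8.11% and 37.2% with 5-ClUrd.

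In DUS1L the share at positions 1 to 9 was 0.556% and 0.746% untreated and 4.53% and 4.52% with 5-ClUrd. At positions 10 to 25 it was 16.5% and 27.6% untreated and 44.4% and 31.7% with 5-ClUrd, and at positions 49 to 65 it was 53.2% and 42.5% against 18% and 28%. These groups did not overlap either (p = 0.333 by the same exact test), nor did those at positions 44 to 48 (2.23% and 0% against 4.43% and 3.04%). Summed, the other tRNA families separated at positions 1 to 9 and 10 to 25 and overlapped at 44 to 48 and 49 to 65. At positions 26 to 43 the untreated values (27.5% and 29.1%) and the treated ones (28.6% and 32.7%) overlapped. The other tRNA families, summed, differed in the same direction: positions 1 to 9 held 3.39% ± 1.06 of their counts untreated and 7.67% ± 0.718 with 5-ClUrd in DUS1L, and 21.4% ± 1.74 and 26.6% ± 4.31 in DUS2L (SD, n = 2 each). Their positions 10 to 19 held 11.4% ± 1.07 and 22.5% ± 0.180 in DUS1L, and 23.3% ± 0.676 and 26.3% ± 1.16 in DUS2L. When each site was counted once, the differences at positions 10 to 25 in DUS1L (-5.24 points) and at 1 to 9 in DUS2L (-6.27 points) changed sign, so they rest on counts per site and not on the number of sites. Without sites above 500 counts the DUS1L difference at positions 10 to 25 changed sign as well (-10.8 points).

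As levels relative to all sense counts, 2 of the 5 ranges tested rose with 5-ClUrd in DUS2L and 0 fell: positions 1 to 9 by 3.15 ± 0.46 on the log2 scale (edgeR adjusted p = 5.59e-10) and positions 10 to 25 by 3.01 ± 0.45 (9.01e-10). Over all ranges of all families 51.1% were called, 39.9% higher and 11.2% lower. In DUS1L 0 of 5 ranges were called in edgeR at the adjusted threshold, against 30.3% of all ranges, 28.4% higher and 1.83% lower; 1 had an unadjusted p under 0.05 (positions 1 to 9, 2.69 ± 1.06, adjusted p = 0.0697), and DESeq2's Wald test called 1. Of the ranges, 1 was called without the first untreated DUS1L library and 2 without the second. For the difference between the enzymes' effects 0 of 5 elongator ranges passed in edgeR or DESeq2 and 2 had an unadjusted p under 0.05 in edgeR, with 13.1% called over all families, 4.1% higher and 9.02% lower; the closest were positions 49 to 65 (2.22 ± 0.75, adjusted p = 0.0617) and 10 to 25 (2.41 ± 0.84, adjusted p = 0.0648). Without either untreated DUS1L library 2 ranges passed.

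Among treated libraries positions 1 to 9 were higher in DUS2L (2.00 ± 0.62, edgeR adjusted p = 0.0136), and positions 26 to 43 (-1.44 ± 0.51, 0.0251) and 44 to 48 (-2.57 ± 0.88, 0.0216) were lower, against 63.9% of all ranges called, 33.6% higher and 30.3% lower. Without either treated DUS1L library or the second treated DUS2L library the higher level at positions 1 to 9 missed the threshold (adjusted p = 0.0884, 0.118 and 0.0958). The number of ranges called was 5 without either untreated DUS1L library, 1 without the second treated DUS1L or the first treated DUS2L library, and 0 without the first treated DUS1L or the second treated DUS2L library. In untreated cells 4 of 5 ranges were lower in DUS2L, by -2.16 to -3.45, against 70.9% of all ranges called, 36.9% higher and 34% lower; the exception was positions 1 to 9 (1.58 ± 0.74, adjusted p = 0.0682), which were called higher with TMM factors (2.68), in DESeq2's Wald test (3.22) and without the second untreated DUS1L library (1.72). The call at positions 44 to 48 was lost with TMM factors (-1.43) and the Wald test (-0.77) and without the first untreated DUS2L library (-1.92). Its sign turned without the first untreated DUS1L library (8.0), which leaves 0 DUS1L counts there. The call at 26 to 43 was lost with TMM factors (-0.92), the Wald test (-0.55) and without the first untreated DUS2L library (-2.0).

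At single sites, with 5-ClUrd in DUS2L, 25 of 58 elongator sites tested rose and 0 fell, against 31.9% of all sites called, 14.9% higher and 17% lower. All 25 lay on tRNA-Met-CAT-1-1. By range they were 8 of 10 sites tested at positions 1 to 9, 10 of 14 at 10 to 19, 1 of 5 at 20 to 25, 4 of 23 at 27 to 57, and 1 of 3 at each of positions 26 and 58. Of the 25, 17 had more than 3 untreated counts, 3 had 1 to 3 and 5 had 0. Those 5 reached the minimum of 10 counts through the treated libraries alone, so they could only rise.

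The leading sites of tRNA-Met-CAT-1-1 show the size of these changes. Position 2 held 43 and 41 counts untreated and 631 and 663 with 5-ClUrd in DUS2L, a log2 change of 2.63 ± 0.46 (edgeR adjusted p = 7.06e-07). Position 5 held 12 and 17 against 209 and 527 (3.39 ± 0.65, adjusted p = 8.45e-06), and position 17 held 11 and 31 against 263 and 454 (2.87 ± 0.62, adjusted p = 0.000129). The treated counts were above the untreated ones in every library at each of these sites. The change was smaller at position 58 (96 and 257 against 944 and 1026; 1.26 ± 0.32, adjusted p = 0.00122) and position 26 (176 and 261 against 930 and 870; 0.77 ± 0.31, adjusted p = 0.0448), the pair whose counts level off near 1000. Within positions 10 to 25, position 15 held 2 and 17 counts untreated and 93 and 312 treated, a ratio of shares of 8.77 (95% counting interval 5.55 to 14.7). Position 13 held 3 and 0 against 80 and 294, a ratio of 51.3 (counting interval 17.4 to 250.0). Position 14 held 0 untreated and 143 treated counts, 19.6-fold higher if the untreated libraries together are set at 3 counts. That fold takes no account of the spread between libraries. Without the first or the second untreated DUS2L library the elongator sites lost their calls in edgeR, although the log2 changes at positions 2, 5 and 17 stayed between 2.41 and 3.53. How many of all sites kept their calls in these fits is not given here.

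**Figure D5:**
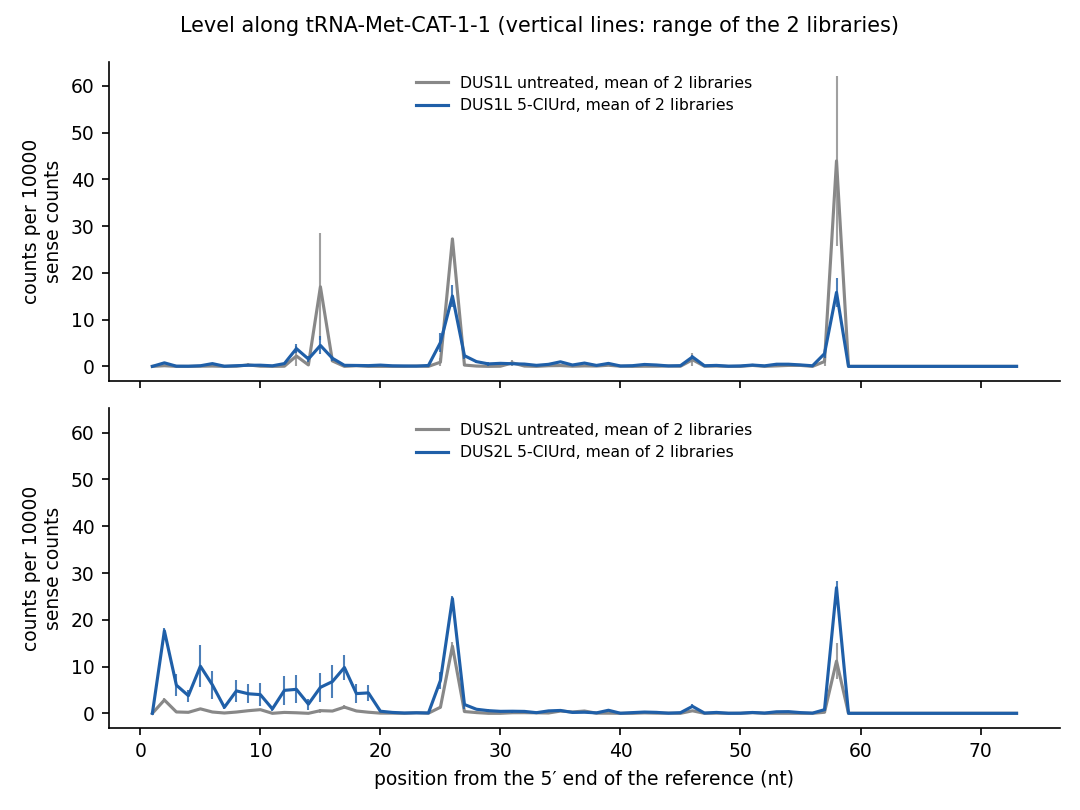
Counts per 10000 sense counts (y axis) along tRNA-Met-CAT-1-1 (x axis, nt from the 5′ end) for DUS1L (top) and DUS2L (bottom), untreated and with 5-ClUrd; lines are means of 2 libraries and vertical lines join the 2 libraries. In DUS2L the treated line lies above the untreated one over positions 2 to 19 and at 26 and 58, and in DUS1L the untreated mean is the higher one at 15, 26 and 58. At 15 the second untreated DUS1L library, the shallowest, stands far above the first (21 of 7369 against 80 of 144322 sense counts).

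In DUS1L 32 of 179 elongator sites rose with 5-ClUrd and 1 fell, against 34% of all sites called, 31.7% higher and 2.31% lower. The rises were spread over 4 references: 14 of 54 sites on 6-1, 11 of 53 on 3-1, 5 of 14 on 2-1 and 2 of 53 on 1-1. Most rested on a thin baseline, since 22 of the 32 had 0 untreated counts, 8 had 1 to 3 and 2 had more. Those 22 reached the minimum of 10 counts through the treated libraries alone, so a rise was the only direction open to them. On 6-1 position 13 held 0 untreated and 293 treated counts, 10.8-fold higher if the untreated libraries together are set at 3 counts. Position 15 held 0 and 420, 15.5-fold higher by the same rule. These folds take no account of the spread between libraries. They rest mostly on the first untreated library, with 144322 sense counts against 7369 in the second. On 3-1 position 2 stood at 1 count untreated and 177 with 5-ClUrd; as shares the ratio was 19.6 (95% counting interval 3.48 to 780.0). The site that fell was position 58 of 3-1, with 1000 and 82 counts untreated and 1119 and 1033 with 5-ClUrd (log2 -2.46 ± 1.00, edgeR adjusted p = 0.0492), again at the level where counts stop climbing. This call was lost without the first (adjusted p = 0.334) or second (0.217) treated library, with TMM factors (0.0544), a minimum of 1 count (0.106) and DESeq2's Wald test (0.0647). With TMM factors 7 sites were called, and 0 of the 61 that received an adjusted p in DESeq2's Wald test, 5 of which had an unadjusted p under 0.05. The number called also moved strongly with 1 library left out. How many of all sites were called under these settings is not given here, so the moves are not read as particular to the elongator.

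On tRNA-Met-CAT-1-1 the sites at positions 13 and 15 responded more positively in DUS2L than in DUS1L, by 5.26 ± 1.45 (edgeR adjusted p = 0.0205) and 5.02 ± 1.19 (0.00333). These were 2 of 184 elongator sites tested, against 1.87% of all sites, 0.648% in this direction. In DUS1L position 13 held 64 and 0 counts untreated and 399 and 150 with 5-ClUrd, and position 15 held 80 and 21 against 527 and 139. The 21 counts lay in the shallowest library, with 7369 sense counts. Leaving out 1 library at a time gave differences between 3.53 and 6.95 at position 15. Both sites already carried DUS1L counts without the analogue and few DUS2L counts. Without the first untreated DUS1L library the difference at position 13 turned to -4.45, because no untreated DUS1L count then remained, and the calls at both positions were lost with TMM factors (4.15 and 2.90), in DESeq2's Wald test (3.93 and 4.26) and without either treated DUS1L library, either untreated DUS2L library or the second treated DUS2L library.

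Among treated libraries 15 elongator sites were higher in DUS2L and 116 lower of 184, against 52.4% of all sites called, 23.2% higher and 29.2% lower. All 15 higher sites lay on tRNA-Met-CAT-1-1 at positions 2 to 19. The lower ones included 50 of 53 sites on 3-1, 50 of 55 on 6-1, 13 of 14 on 2-1 and 0 of 56 on 1-1. The minimum of 10 counts was taken over all 8 libraries. In the fit of the DUS2L libraries alone only 5 sites on 3-1, 3 on 6-1 and 2 on 2-1 reached it. Most of these sites were thus tested only because of their DUS1L counts, and the number of lower ones is no separate evidence of a difference. In untreated cells 2 were higher, positions 2 and 17 of 1-1, and 37 were lower, 6 of these on 1-1, against 27.3% of all sites, 15.3% higher and 12% lower. Between the treated libraries DESeq2's Wald test gave 95 elongator sites an adjusted p and called 16 of them higher and 24 lower. The share of all sites called by that test is not given here.

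The initiator tRNA had too few counts for a profile. Its sites lay at positions 9 to 53 of 72, with the most counts at positions 33 and 34. In untreated DUS2L position 33 held 4 and 9 counts and position 34 held 8 and 0. With 5-ClUrd, position 33 held 1 and 4 counts, position 34 held 3 and 2, and positions 43 and 45 held 7 each in the first library and 0 in the second. In DUS1L with 5-ClUrd the highest counts were 5 at position 46 in the second library and 3 each at position 34 in the first and position 33 in the second, and the untreated DUS1L counts were 1 each at 21 and 46. The initiator had 0 counts in all 8 libraries at positions 26 and 58, the numbers at which the elongator had most. Initiator and elongator references (genes of 72 and 73 nt) were not aligned to each other, so equal numbers need not mark the same base. Position 25 of the initiator held 2 counts in the second treated DUS1L library, 4 in the first untreated and 1 in the first treated DUS2L library. With at most 25 initiator counts in a library, an absence at a position cannot be shown. In DUS2L 2 initiator sites had enough counts to be tested and 0 were called in edgeR or DESeq2, with 0 at an unadjusted p under 0.05 in either. At positions 26 to 43 untreated DUS2L was called higher than untreated DUS1L, against 36.9% of all ranges. Untreated DUS1L had 0 counts there and 2 initiator counts in all, whereas 73.7% of the 19 initiator counts of each untreated DUS2L library lay in that range.

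The authors' deposited peaks, intervals whose score equals the summed site counts inside, included 27 on the sense strand of the elongator and 3 on the initiator, of 1680 in all. Of the elongator peaks 16 came from the 2 treated DUS1L libraries, 5 from the untreated DUS1L libraries and 3 each from untreated and treated DUS2L libraries. In both treated DUS1L libraries they covered positions 25 and 26 on references 1-1, 3-1 and 6-1, reaching 27 on 6-1 in both and on 1-1 in the first, and positions 12 or 13 to 15 on 1-1 and 2-1, and a peak at 57 to 58 on 1-1, 3-1 and 6-1 in the second. Treated DUS2L had 1 on 1-1, at positions 25 to 26 with a score of 1255, in the first library. The initiator peaks were all from DUS2L, at positions 33 to 34 and 33 to 36 untreated (scores of 12 and 13) and 43 to 45 with 5-ClUrd (15). The number of peaks is not read as a level here.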

How the data were processed

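The deposited site files give whole-number crosslink counts per single-base position and strand of a tRNA or rRNA reference. Per the submitters' processing notes the authors used STAR 2.7.0f and hg38; handling of random barcodes and of reads matching several references is not given in the sources used here. Sense counts were summed per family (55), reference, position range (1 to 9, 10 to 25, 26 to 43, 44 to 48, 49 to 65 and beyond) and site, and fitted across all features with edgeR 4.0.16 (quasi-likelihood F test, R 4.3.3; library size the total sense count; minimum of 10 counts; Benjamini-Hochberg threshold 0.05). SE is the size of the log2 change divided by the square root of F. DUS1L and DUS2L were each fitted alone; comparisons between them used all 8 libraries and share control libraries. With 2 libraries a group, p-values measure the spread between these cultures, which edgeR estimates partly from all features together. Its adjusted p-values as small as 5.37e-10 therefore rest on a spread shared between features, not on 2 libraries a group alone. Alternatives included TMM, DESeq2 1.42.0, other minimums and left-out libraries. Named were both families, the 5 positions with the highest mean share per enzyme and treatment, sites passing the test or among the 5 highest treated counts, and the 3 most alike families. Members and lists were chosen with earlier results of these data known. The scripts were tested on simulated data. No tRNA sequence was used here.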

Additional observations from a re-analysis of the deposited data

Results flagged for a closer look

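In 4 results the log2 change with 5-ClUrd differed between the enzymes by a direct test (edgeR over all 8 libraries). For the elongator family the change in DUS2L exceeded that in DUS1L by 1.97 (adjusted p = 0.0260), and for its reference tRNA-Met-CAT-1-1 by 2.64 (adjusted p = 0.00582). For single sites of that reference it was 5.26 at position 13 (adjusted p = 0.0205) and 5.02 at position 15 (adjusted p = 0.00333). Over all features the same test called 29.1% of families, 17.6% of references and 1.87% of sites. The sites were 2 of 184 elongator sites tested, so their number is not read as particular to the elongator. Each of the 4 calls was lost under some alternatives, TMM factors among them. At position 13 the sign turned without the first untreated DUS1L library. No group had the 4 libraries needed to test for a library far from the others.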

How the results depend on the processing

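Across the results and alternatives run, 936 values kept their direction and side of the threshold, 86 lost the threshold, 46 gained it, 48 counts or differences moved and 43 changed sign; unless a left-out library or fewer sites account for it by construction, the cause was not tested. With TMM factors the difference between enzymes was 0.87 for the elongator, -0.91 at its positions 1 to 9 and -0.74 at 26 to 43; the 5-ClUrd change was -0.57 for reference 2-1 and -0.22 at positions 26 to 43 in DUS2L, and -0.70 for 6-1, -0.56 at positions 10 to 25 and -0.67 for the initiator in DUS1L; 7 elongator sites were called in DUS1L, 1 initiator range each in DUS2L and for the difference, and the initiator passed between untreated groups (3.52). With DESeq2's Wald test these were -0.23 (positions 1 to 9, difference), -0.69 (2-1), -0.26 (26 to 43), -0.97 (6-1), -0.66 (10 to 25), -1.46 (elongator, DUS1L), 0.16 (1-1, untreated groups) and 3.46 (initiator, untreated groups); it called 1 elongator range in DUS1L, 1 between treated groups, 1 initiator range in DUS2L, 0 elongator sites in DUS1L and for the difference, and 40 between treated groups. With DESeq2 size factors in edgeR the values were -0.67 (2-1), -0.97 (6-1), 0.16 (1-1, untreated groups), -0.94 (initiator, DUS1L) and 3.75 (initiator, untreated groups). Without sites above 500 counts DUS1L changes were 0.59 (elongator), 0.53 (1-1), 0.33 (3-1) and -0.15 (initiator), DUS2L changes -1.19 (2-1) and 1.21 (6-1), and differences 2.34 (elongator) and 0.060 (6-1); the log2 elongator to initiator ratio differed by 2.83 in DUS1L, and shares differed by -10.8 points at positions 10 to 25 and 1.15 at 49 to 65 in DUS1L. With each site counted once that ratio differed by -0.81 (DUS1L) and 0.89 (DUS2L), and shares by -5.24 points at positions 10 to 25 in DUS1L and by -6.27, 0.12 and 2.91 at 1 to 9, 26 to 43 and 49 to 65 in DUS2L. A minimum of 1 count gave 17 called elongator sites in DUS1L and 12 in DUS2L.

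Same-numbered libraries correlated in their deviations from group means by 0.0275 (DUS1L) and 0.410 (DUS2L) over 55 families; with 2 pairs per enzyme and no label tying them, they were not treated as pairs. A replicate block gave 52 called elongator sites in DUS1L, 0 for the difference (5.37 at position 13 and 4.46 at 15 of reference 1-1, adjusted p = 0.0652 and 0.058), 1 initiator range in DUS2L and -0.30 for the initiator in DUS1L. Leaving out 1 library at a time gave -1.13 to 1.18 for reference 2-1 in DUS2L, and for differences between enzymes -0.69 to 0.38 (3-1), -4.45 to 10.2 (site 13 of 1-1), -0.11 to 0.82 (positions 1 to 9), -10.57 to 0.59 (44 to 48) and 1.61 to 2.25 (elongator). It gave -1.11 to -0.47 for the elongator between treated groups, -3.16 to 8.0 at positions 44 to 48 between untreated groups, and -2.68 to -0.90 (DUS2L) and 3.06 to 8.46 (untreated groups) for the initiator. Elongator ranges called were 0 to 2 in DUS1L, 0 to 2 for the difference and 0 to 5 between treated groups; sites called were 4 to 67 in DUS1L, 0 to 20 in DUS2L and 0 to 3 for the difference. The initiator's 0 to 25 counts a library limit its values. Numbers of ranges and sites called under an alternative, here and above, are given without the share of all features called under it. They are therefore not read as particular to the methionine tRNAs.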

Other observations

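On the strand opposite to the elongator references the libraries held 7 and 0 counts in untreated DUS1L, 16 and 0 with 5-ClUrd, 1 and 3 in untreated DUS2L, and 1 and 6 with 5-ClUrd. A single antisense peak was listed, at positions 74 to 76 of tRNA-Met-CAT-3-1 in the first treated DUS1L library, with a score of 15.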
